A study of Homo sapiens with 12 samples.

Results

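MHC class I antigen presentation was followed through 9 genes, taken by symbol from the rows of both deposited count tables: the heavy chains HLA-B, HLA-C and HLA-E, the light chain B2M, the peptide loading genes TAP1, TAP2 and TAPBP, and the immunoproteasome subunits PSMB8 and PSMB9. All 9 were present among the 27064 symbols listed, and all 9 passed the filter on low counts in every comparison. The libraries were made from polyadenylated RNA of H226 (NCI-H226), a mesothelioma line, and ACHN, a kidney cancer line. The 4 groups were H226 with 100 nM SWTX-143, H226 with DMSO, ACHN with 100 nM SWTX-143 and ACHN with DMSO, each of 3 libraries after an overnight incubation. SWTX-143 blocks the TEAD transcription factors irreversibly, the DNA-binding partners of the coactivators YAP and TAZ, and DMSO served as the control. The submitters describe both lines, and so all 4 groups, as lacking functional NF2, the gene for merlin, which activates the Hippo kinases. Each line is 1 cell line and no other line was measured, so a difference between H226 and ACHN is a difference between those lines. Nothing in the labels says that replicates were grown as separate cultures, so p-values cover the spread among these libraries, which may be technical.

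MHC class I molecules show peptides from inside the cell to CD8+ T cells and natural killer cells. The proteasome cuts proteins into peptides, and its immunoproteasome form, with subunits induced by interferon gamma, cuts more often after the residues that class I grooves prefer. TAP1 and TAP2 together form the transporter that carries the peptides into the endoplasmic reticulum, tapasin (TAPBP) holds an empty class I molecule next to it, and only a heavy chain bound to beta-2 microglobulin (B2M) and a peptide moves on to the surface. NLRC5 and IRF1 are known activators of these genes.

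Total counts ran from 9690980 to 11262663 per H226 library and from 10113810 to 11206457 per ACHN library. The 9 genes together took 0.438% to 0.532% of the counts in H226 and 0.2% to 0.225% in ACHN, with 506 to 20489 counts per gene and library. The summed levels of the 6 mesothelial markers were 3841 to 4109 CPM (counts scaled by effective library size) in H226 with SWTX-143 and 3353 to 3518 CPM in H226 with DMSO, against 152 to 160 CPM with SWTX-143 and 183 to 186 CPM with DMSO in ACHN, where WT1 had no count. The 5 kidney markers summed to 742.5 to 796 CPM with SWTX-143 and 725 to 755 CPM with DMSO in ACHN, and to 16.2 to 18.2 CPM with SWTX-143 and 8.70 to 10.3 CPM with DMSO in H226. Most of the mesothelial sum in ACHN was LRRN4 alone, on average 149 CPM with SWTX-143 and 177 CPM with DMSO. Most of the kidney sum in H226 was LHX1 alone, on average 14.9 CPM with SWTX-143 and 8.05 CPM with DMSO. The defining leukocyte marker PTPRC had no count in any library. The 8 immune markers, of which 6 had a count in each H226 group, summed to 36.2 to 38.8 CPM with SWTX-143 and 27.5 to 30.9 CPM with DMSO in H226. In ACHN 4 of them had a count with SWTX-143 and 3 with DMSO, and the sums were 149.5 to 152 CPM with SWTX-143 and 123 to 129.5 CPM with DMSO. Without CD74, the class II invariant chain, they summed to 8.19 to 11.25 CPM with SWTX-143 and 6.72 to 8.19 CPM with DMSO in H226, and to 6.74 to 6.96 CPM with SWTX-143 and 5.86 to 6.60 CPM with DMSO in ACHN. The mesothelial, kidney and immune sums did not overlap between treatments in H226, nor did the mesothelial and immune sums in ACHN, and their part in the class I results of either line was not tested. The TEAD-dependent genes CTGF (-2.53 and -2.39), CYR61 (-1.41 and -1.28) and ANKRD1 (-2.09 and -1.38, log2 fold change in H226 and in ACHN) all fell with SWTX-143.

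RefSeq held a promoter window for 8 of the 9 genes, all but HLA-E. The last 160 bases before the start site (GRCh38.p14) are shown for genes that rose, fell or passed no test, so that the known control elements can be read beside the responses. Capitals mark matches on either strand. They cover the letters of the CCAAT box (CCAAT), a CRE-like element (TGACG) and the interferon response element in the spellings GAAANNGAA and GAANNGAAA. They also cover GGGANTTCC, a single spelling of the NF-kB site, and other spellings of that site are left unmarked. The GAS element TTCNNNGAA and the TEAD site GGAATG were searched too and had no match in these stretches.
HLA-B, chr6:31357180-31357339, minus strand: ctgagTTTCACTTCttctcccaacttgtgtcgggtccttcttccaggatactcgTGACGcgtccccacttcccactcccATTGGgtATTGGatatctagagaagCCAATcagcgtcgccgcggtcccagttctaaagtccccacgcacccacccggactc
HLA-C, chr6:31272093-31272252, minus strand: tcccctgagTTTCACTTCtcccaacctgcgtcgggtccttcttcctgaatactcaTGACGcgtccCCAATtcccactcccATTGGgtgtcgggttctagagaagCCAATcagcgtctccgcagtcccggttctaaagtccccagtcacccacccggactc
B2M, chr15:44711357-44711516, plus strand: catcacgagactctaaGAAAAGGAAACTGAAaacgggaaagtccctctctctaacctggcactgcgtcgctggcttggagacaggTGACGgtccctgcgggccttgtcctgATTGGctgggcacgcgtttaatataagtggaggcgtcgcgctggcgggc
TAPBP, chr6:33314079-33314238, minus strand: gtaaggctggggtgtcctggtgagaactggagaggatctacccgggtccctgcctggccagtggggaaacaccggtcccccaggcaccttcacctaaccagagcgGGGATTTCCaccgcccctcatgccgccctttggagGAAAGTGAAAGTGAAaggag
TAP2, chr6:32838740-32838899, minus strand: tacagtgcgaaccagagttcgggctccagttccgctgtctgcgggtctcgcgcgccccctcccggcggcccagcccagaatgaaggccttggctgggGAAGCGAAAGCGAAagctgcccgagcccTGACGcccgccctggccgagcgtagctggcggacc
TAP1, chr6:32853705-32853864, minus strand: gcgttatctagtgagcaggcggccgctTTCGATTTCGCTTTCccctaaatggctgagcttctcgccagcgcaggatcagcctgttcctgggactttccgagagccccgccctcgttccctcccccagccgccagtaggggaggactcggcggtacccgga
PSMB9, chr6:32854032-32854191, plus strand: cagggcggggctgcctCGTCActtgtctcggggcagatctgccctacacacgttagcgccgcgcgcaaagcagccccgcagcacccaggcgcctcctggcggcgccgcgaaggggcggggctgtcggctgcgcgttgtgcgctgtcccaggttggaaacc

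In the full 250 bases before the start site, GAAANNGAA occurred in B2M, TAP1, TAP2 and TAPBP, against 6.88% of all 35116 RefSeq promoters of the same length. HLA-B, HLA-C and TAP2 held GAANNGAAA, against 6.56% of promoters. This spelling was added after the windows had been seen. In B2M, TAP1 and TAPBP 2 overlapping GAAANNGAA matches share bases, and in TAP2 a match of each spelling does. CRE-like letters were present in 6 of the 8 genes (HLA-B, HLA-C, B2M, TAP2, PSMB8 and PSMB9, against 21.2% of promoters). CCAAT was present in 5 (HLA-B, HLA-C, B2M, TAP1 and PSMB9, against 32.0%). A gene counts if any of its windows matched, and TAP1 and PSMB8 had 2 windows each, while the shares are per single window. TAPBP alone among the 8 held the NF-kB letters GGGANTTCC (1.59% of promoters), and other spellings of that site were not searched. GAS letters occurred in second start sites of TAP1 and PSMB8 (6.57%). The TEAD letters occurred in 1 gene, at the second start site of PSMB8 (11.9% of promoters). TAP1 and PSMB9 are read away from each other from starts 487 bases apart, and their 250-base windows share 13 bases. A match is a description of the letters only, and no match says only that these letters are not in this window.

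With SWTX-143 the heavy chains, their light chain and tapasin rose in H226, some of them rose in ACHN, and TAP2 fell in both lines. In H226, 5 of the 9 genes rose (HLA-B, HLA-C, HLA-E, B2M and TAPBP), 1 fell (TAP2) and 3 were not called (TAP1, PSMB8 and PSMB9). Of all 13484 genes tested in H226, 19.0% were called higher and 21.6% lower. In ACHN, 3 rose (HLA-E, B2M and TAPBP), 1 fell (TAP2) and 5 were not called, against 8.43% of 13483 genes called higher and 9.37% called lower. The median log2 fold change of the 9 genes was 0.17 in H226, where the median of all genes tested was -0.0011, and 0.09 in ACHN, where it was 0.00127. Calls are at a Benjamini-Hochberg adjusted p of 0.05 in edgeR's quasi-likelihood test over all genes tested in that line. Other scalings moved the balance of all calls, to 3283 higher and 2324 lower with upper-quartile scaling in H226 (2567 and 2919 in the TMM fit). In ACHN the balance was 1537 higher and 977 lower with library sizes alone and 1450 and 1028 with upper-quartile scaling (1137 and 1264 with TMM). These scalings moved the median of all genes by at most 0.0494 (log2), and no call named above for H226 was lost. In RNA from whole cultures, fewer cells with an RNA and less of it per cell cannot be told apart.

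**Figure D1:**
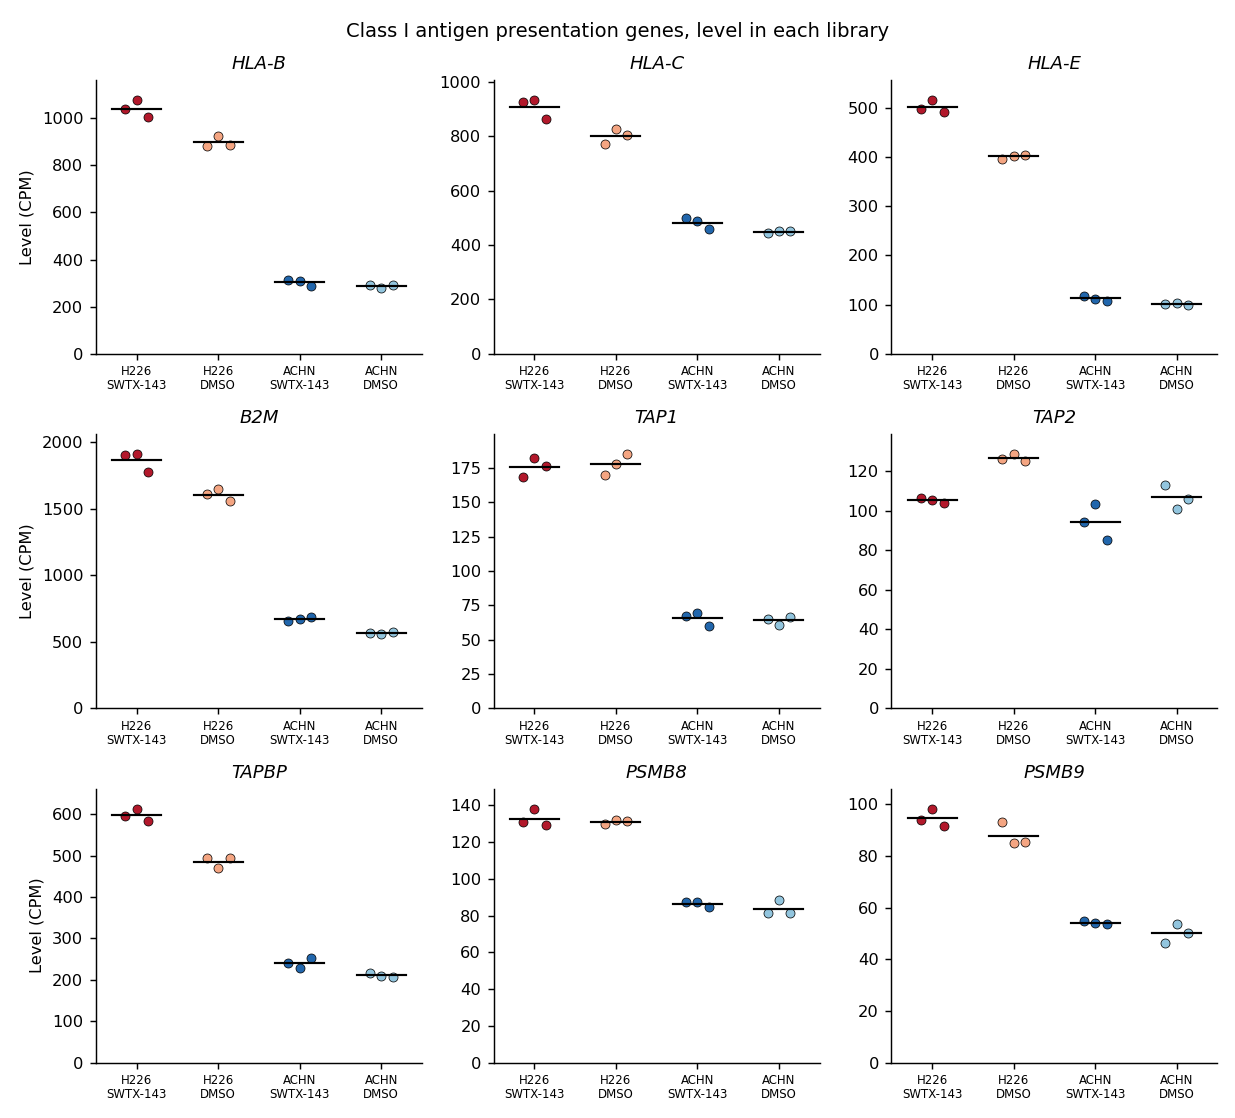
Level of each of the 9 class I genes in CPM (linear axis from 0) in every library, by line and treatment; points are libraries and bars are means of 3. The H226 libraries with SWTX-143 lie above those with DMSO for HLA-B, HLA-C, HLA-E, B2M and TAPBP and below them for TAP2.

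HLA-B encodes one of the classical heavy chains, which present peptides to CD8+ T cells. In H226 its level was 1039, 1078 and 1006 CPM with SWTX-143, against 883, 927 and 886 CPM with DMSO. Every treated library was above every control library, a 1.15-fold rise (log2 0.20 ± 0.04 SE, adjusted p = 1.77e-05 in edgeR). In ACHN the level was 313, 310.2 and 286 CPM with SWTX-143, against 291, 281 and 291 CPM with DMSO. These groups overlapped, since treated replicate 3 was below 2 of the control libraries, and HLA-B was not called in ACHN (0.06 ± 0.04, adjusted p = 0.305).

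HLA-C is the classical heavy chain that also serves as the main ligand of inhibitory killer-cell receptors on natural killer cells. In H226 it stood at 925, 933 and 864 CPM with SWTX-143, against 772, 826 and 803 CPM with DMSO, and the groups did not overlap. The rise was 1.13-fold (log2 0.17 ± 0.04, adjusted p = 0.000305, edgeR). In ACHN it stood at 498, 486 and 458 CPM with SWTX-143, against 442, 449 and 450.2 CPM with DMSO. All treated ACHN libraries were above all controls, but the difference missed the limit (0.09 ± 0.04, adjusted p = 0.0785). It passed with library sizes alone (0.12, adjusted p = 0.0132), with upper-quartile scaling (0.11, 0.0177), and without SWTX-143 replicate 3 (0.12, 0.015).

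HLA-E, a nonclassical heavy chain that presents leader peptides of other class I chains to the natural killer receptor CD94/NKG2A, had the largest rise of the 9 in H226. Its level there was 498, 517 and 492 CPM with SWTX-143, against 397, 403 and 405 CPM with DMSO. The treated libraries were well clear of the controls (1.24-fold, log2 0.31 ± 0.04, adjusted p = 2.23e-09 in edgeR). The ACHN levels were 117, 112 and 108 CPM with SWTX-143, against 102, 102 and 100.0 CPM with DMSO. The ACHN groups did not overlap either, and HLA-E was called higher (1.10-fold, log2 0.13 ± 0.05, adjusted p = 0.0339). That call was lost with DESeq2 (adjusted p = 0.126) and on leaving out any of 4 ACHN libraries, SWTX-143 replicate 1 (0.181) or 2 (0.0551) or DMSO replicate 2 (0.0564) or 3 (0.145).

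Heavy chain genes resemble one another, so reads can be split between them. Of 100-base windows of the longest GENCODE transcript, 0% of HLA-B, 0.225% of HLA-C and 0.6% of HLA-E were identical to a stretch of another gene. In GENCODE 29, AL671883.2 on the opposite strand overlaps 17.8% of HLA-B exon bases, and it is not among the symbols listed. HLA-B and HLA-C share 35 exon bases on the same strand. HLA-B and HLA-C are highly polymorphic, and how reads of either line's alleles were aligned is not given in the sources used here.

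B2M encodes beta-2 microglobulin, the light chain that the heavy chains HLA-B, HLA-C and HLA-E need. In H226 its level was 1906, 1906 and 1772 CPM with SWTX-143, against 1611, 1649.7 and 1555 CPM with DMSO. In ACHN B2M was at 655, 672 and 688 CPM with SWTX-143, against 561, 561 and 570.3 CPM with DMSO. The groups did not overlap in either line. B2M rose 1.15-fold in H226 (log2 0.20 ± 0.04, adjusted p = 1.35e-05, edgeR) and 1.18-fold in ACHN (0.24 ± 0.03, adjusted p = 3.41e-07), and it was the gene of the 9 with the smallest p in ACHN.

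TAPBP encodes tapasin, which bridges the class I molecule to the transporter and edits its peptide. In H226 its level was 595, 613 and 584 CPM with SWTX-143, against 493, 469 and 494 CPM with DMSO. In ACHN TAPBP was at 240.3, 227 and 253 CPM with SWTX-143, against 215, 209 and 208 CPM with DMSO. Treated libraries were above all controls in both lines. TAPBP rose 1.22-fold in H226 (log2 0.29 ± 0.04, adjusted p = 1.62e-08, edgeR) and 1.13-fold in ACHN (0.17 ± 0.04, adjusted p = 0.00101).

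TAP2, which makes the peptide transporter together with TAP1, was the only one of the 9 that fell. In H226 it was 106, 105 and 104 CPM with SWTX-143, against 126, 128 and 125 CPM with DMSO, with a gap between the groups. In ACHN TAP2 was at 94.1, 103 and 85.3 CPM with SWTX-143, against 113, 101 and 106 CPM with DMSO. Here the groups overlapped, because treated replicate 2 was above control replicate 2. TAP2 fell 1.21-fold in H226 (log2 -0.28 ± 0.05, adjusted p = 3.81e-06, edgeR) and 1.15-fold in ACHN (-0.20 ± 0.05, adjusted p = 0.0055). Without SWTX-143 replicate 3 the fall in that line was not called (-0.13, adjusted p = 0.0964). In GENCODE release 29, 32.3% of TAP2 exon bases also belong to the gene AL669918.1 on the same strand. That gene is not among the symbols listed. How reads there were counted is not known, so they cannot be assigned to TAP2 alone.

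TAP1, the partner of TAP2 in the transporter, was not called in either line. In H226 its level was 168, 182 and 177 CPM with SWTX-143, against 170.1, 178 and 185 CPM with DMSO. In ACHN TAP1 was at 67.5, 69.3 and 60.1 CPM with SWTX-143, against 65.1, 60.9 and 66.5 CPM with DMSO. The groups lay across each other in both lines. The log2 fold change was -0.03 in H226 (95% interval -0.12 to 0.07, adjusted p = 0.695, edgeR) and 0.02 in ACHN (-0.10 to 0.13, adjusted p = 0.901).

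PSMB8 and PSMB9 encode the immunoproteasome subunits LMP7 and LMP2, which replace PSMB5 and PSMB6 of the standard proteasome. PSMB8 in H226 was 131, 138 and 129 CPM with SWTX-143, against 129.9, 132 and 131 CPM with DMSO. In ACHN PSMB8 was 87.4, 87.6 and 84.5 CPM with SWTX-143, against 81.5, 88.5 and 81.3 CPM with DMSO. The treated and control libraries overlapped in both lines, and PSMB8 was called in neither (0.01 ± 0.05, adjusted p = 0.908 in H226; 0.03 ± 0.05, adjusted p = 0.738 in ACHN; edgeR). The 95% intervals were -0.09 to 0.10 in H226 and -0.07 to 0.13 in ACHN.

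PSMB9 in H226 was 94.0, 98.1 and 91.6 CPM with SWTX-143, against 93.2, 84.8 and 85.4 CPM with DMSO. In ACHN PSMB9 was 54.7, 54.2 and 53.6 CPM with SWTX-143, against 46.4, 53.7 and 50.1 CPM with DMSO. In each line a single pair of libraries made the groups overlap. The log2 fold changes were alike in size, 0.10 ± 0.05 in H226 (adjusted p = 0.138, edgeR) and 0.10 ± 0.06 in ACHN (adjusted p = 0.281), and neither was called. In H226 PSMB9 passed with upper-quartile scaling (0.15, adjusted p = 0.0217), with library sizes alone (0.14, 0.0324) and without DMSO replicate 1 (0.15, 0.048). The noncoding PSMB8-AS1 overlaps exons of TAP1 (9.49% of its exon bases), PSMB8 (20.6%) and PSMB9 (5.66%), and PSMB8 and PSMB9 share 139 exon bases. PSMB8-AS1 lies on the same strand as PSMB9 and opposite to TAP1 and PSMB8. With no strand setting stated, reads of all these overlaps cannot be told apart. PSMB8-AS1 itself had 2821 counts over the H226 libraries and 1149 over the ACHN libraries. In the same order, PSMB8 had 8143 and 5710, PSMB9 5636 and 3498, and TAP1 10897 and 4355.

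Whether the response differed between the lines was tested by 1 contrast, the H226 response minus the ACHN response, over all 12 libraries. Of the 9 genes, HLA-E alone was called, with a response larger in H226 by 0.17 ± 0.06 log2 units (adjusted p = 0.0385, edgeR). Of all 14664 genes tested, 5.89% were called higher and 9.70% lower. No class I gene was called lower by edgeR, by DESeq2 or at an unadjusted p of 0.05. The HLA-E call was lost on leaving out any of 5 ACHN libraries, SWTX-143 replicate 2 (adjusted p = 0.0718) or 3 (0.115) or DMSO replicate 1 (0.0654), 2 (0.0894) or 3 (0.0587). Upper-quartile scaling moved the balance of all calls for this contrast to 1159 higher and 1045 lower (863 and 1423 with TMM).

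The HLA-B difference was 0.14 ± 0.06 with an adjusted p of 0.0912 (edgeR), and its 95% interval of 0.02 to 0.25 lay above 0. It was called under other scalings (0.16, adjusted p = 0.0381 with RLE; 0.18, 0.0163 with upper-quartile; 0.15, 0.0306 with library sizes alone), without the filter (0.17, 0.0397) and without H226 DMSO replicate 2 (0.20, 0.0139). Without H226 SWTX-143 replicate 3 there were 4 called genes in place of 1, namely HLA-B (0.20, adjusted p = 0.00559), HLA-C (0.15, 0.0451), TAPBP (0.17, 0.035) and HLA-E. For B2M the interval of the difference was -0.14 to 0.07, for TAP2 -0.23 to 0.06, for TAP1 -0.19 to 0.10, for PSMB8 -0.17 to 0.11 and for PSMB9 -0.17 to 0.15. These include differences as large as several of the responses themselves.

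**Figure D2:**
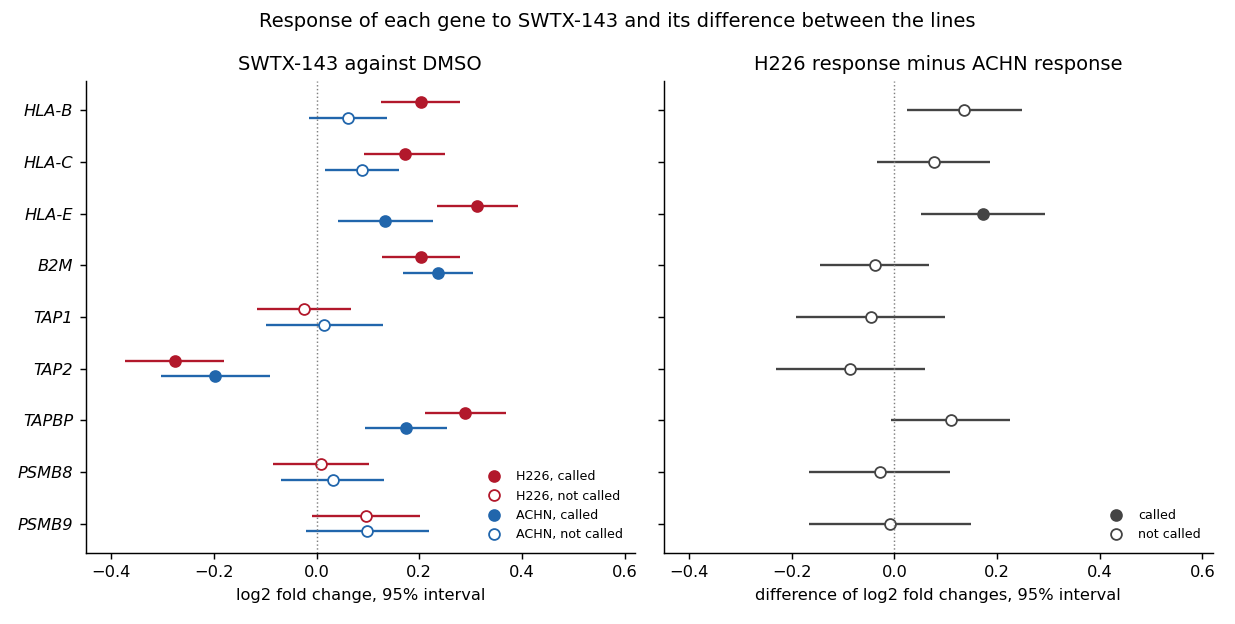
Left, log2 fold change with SWTX-143 over DMSO for each class I gene in H226 (red) and ACHN (blue); right, the H226 response minus the ACHN response. Points are edgeR estimates, bars 95% intervals and filled points adjusted p under 0.05; TAP2 is below 0 in both lines and HLA-E is the one filled point on the right.

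Under DMSO, H226 carried more RNA of every one of the 9 genes than ACHN. All 9 were called higher in H226, against 42.2% of all genes tested. HLA-E differed most, 3.96-fold (log2 1.98 ± 0.04, adjusted p = 1.35e-57, edgeR), followed by HLA-B (3.12-fold, 1.64 ± 0.04), B2M (2.85-fold, 1.51 ± 0.04) and TAP1 (2.77-fold, 1.47 ± 0.05). TAPBP was 2.30-fold higher, HLA-C 1.79-fold, PSMB9 1.76-fold and PSMB8 1.57-fold. TAP2 differed least, 1.19-fold (0.25 ± 0.05, adjusted p = 9.92e-06), and was not called with library sizes alone (0.09, adjusted p = 0.101). That scaling moved the median of all genes by -0.16. For HLA-E the drug response in H226 was small beside this gap, 1.24-fold against 3.96-fold between the lines. For TAP2 it was not, with a 1.21-fold fall in H226 against 1.19-fold between the lines.

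Levels of different genes were compared per kilobase of the longest GENCODE transcript. In H226 with DMSO the order was B2M (668 ± 19.9 CPM per kilobase, SD), HLA-B (581 ± 16.1), HLA-C (426 ± 14.3), HLA-E (154 ± 1.57), TAPBP (129 ± 3.82), TAP1 (60.1 ± 2.52), PSMB8 (55.3 ± 0.457), PSMB9 (32.8 ± 1.75) and TAP2 (22.3 ± 0.286). No neighbours in that order had overlapping libraries. The same order held in H226 with SWTX-143, where TAP1 (59.4 ± 2.37) and PSMB8 (55.9 ± 1.95) overlapped.

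In ACHN with DMSO the order was HLA-C (238 ± 2.34 CPM per kilobase), B2M (235 ± 2.22), HLA-B (186 ± 3.74), TAPBP (56.1 ± 1.11), HLA-E (39.0 ± 0.505), PSMB8 (35.3 ± 1.73), TAP1 (21.7 ± 0.987), TAP2 (18.8 ± 1.07) and PSMB9 (18.7 ± 1.38). HLA-C and B2M overlapped there, as did TAP2 and PSMB9. With SWTX-143 B2M stood first in ACHN at 280 ± 6.78, clear of HLA-C at 256 ± 11.2, and TAP2 was last at 16.6 ± 1.58. HLA-B was thus above HLA-C in H226 and below it in ACHN. All these orders rest on the transcript lengths used.

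**Figure D3:**
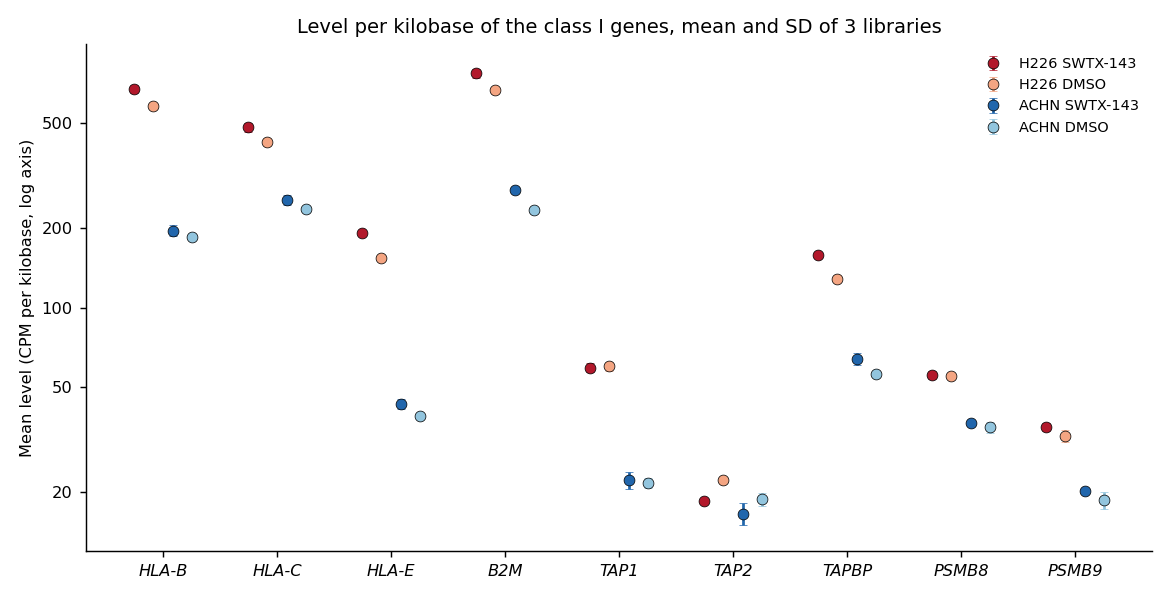
Mean level of each class I gene in CPM per kilobase of its longest transcript (log axis) in the 4 groups; bars are SD of 3 libraries. B2M, HLA-B and HLA-C are highest in every group, and TAP2 is the gene whose 2 lines lie closest together.

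Ratios of CPM per kilobase of the longest transcript between partner subunits were then compared within each line by exact two-sided permutation tests of 3 against 3 libraries, which cannot go below p = 0.1. TAP1 over TAP2 was 3.04, 3.32 and 3.27 in H226 with SWTX-143, against 2.59, 2.67 and 2.83 with DMSO. In ACHN it was 1.38, 1.29 and 1.35 with SWTX-143, against 1.11, 1.16 and 1.21 with DMSO. The ratio was higher in every treated library of both lines, 1.19-fold in H226 and 1.16-fold in ACHN, each at the smallest exact permutation p (0.1; 0.143 adjusted over the 10 ratio tests). B2M over the summed HLA-B, HLA-C and HLA-E averaged 0.574 ± 0.00969 with SWTX-143 and 0.575 ± 0.0156 with DMSO in H226 (SD, exact permutation p = 1.0), and the groups overlapped. In ACHN that ratio averaged 0.566 ± 0.0392 with SWTX-143 and 0.507 ± 0.002 with DMSO, with no overlap (exact permutation p = 0.1). The size of these ratios rests on the lengths used, which are the same in both groups. With median transcript length the DMSO ratio of TAP1 over TAP2 was 1.69 in H226 and 0.722 in ACHN, below 1 there, and that of B2M over the heavy chains was 1.03 in H226 and 0.945 in ACHN.

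The immunoproteasome subunits were also set against the standard subunits they replace. PSMB8 over PSMB5 averaged 0.909 ± 0.0207 with SWTX-143 and 0.809 ± 0.0209 with DMSO in H226, with no overlap (exact permutation p = 0.1). PSMB8 itself was not called there (log2 0.01, adjusted p = 0.908, edgeR), while PSMB5 fell (-0.16, adjusted p = 0.0102). Each exact permutation p of 0.1 among the 10 ratio tests was 0.143 once adjusted. PSMB9 over PSMB6 was likewise higher in every treated H226 library, 0.292 ± 0.0132 with SWTX-143 and 0.253 ± 0.0195 with DMSO (exact permutation p = 0.1). In ACHN both ratios overlapped between the groups, PSMB8 over PSMB5 at 0.567 ± 0.0272 with SWTX-143 and 0.522 ± 0.0454 with DMSO (exact permutation p = 0.3), and PSMB9 over PSMB6 at 0.118 ± 0.00392 with SWTX-143 and 0.114 ± 0.00691 with DMSO (exact permutation p = 0.4). The remaining pair, PSMB10 over PSMB7, averaged 0.101 ± 0.0031 with SWTX-143 and 0.0726 ± 0.0112 with DMSO in H226, a 1.40-fold difference. In ACHN it averaged 0.211 ± 0.00291 with SWTX-143 and 0.187 ± 0.00869 with DMSO, and neither line's groups overlapped (exact permutation p = 0.1 in each line). With median transcript length PSMB9 over PSMB6 was 0.663 in H226 and 0.297 in ACHN under DMSO.

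**Figure D4:**
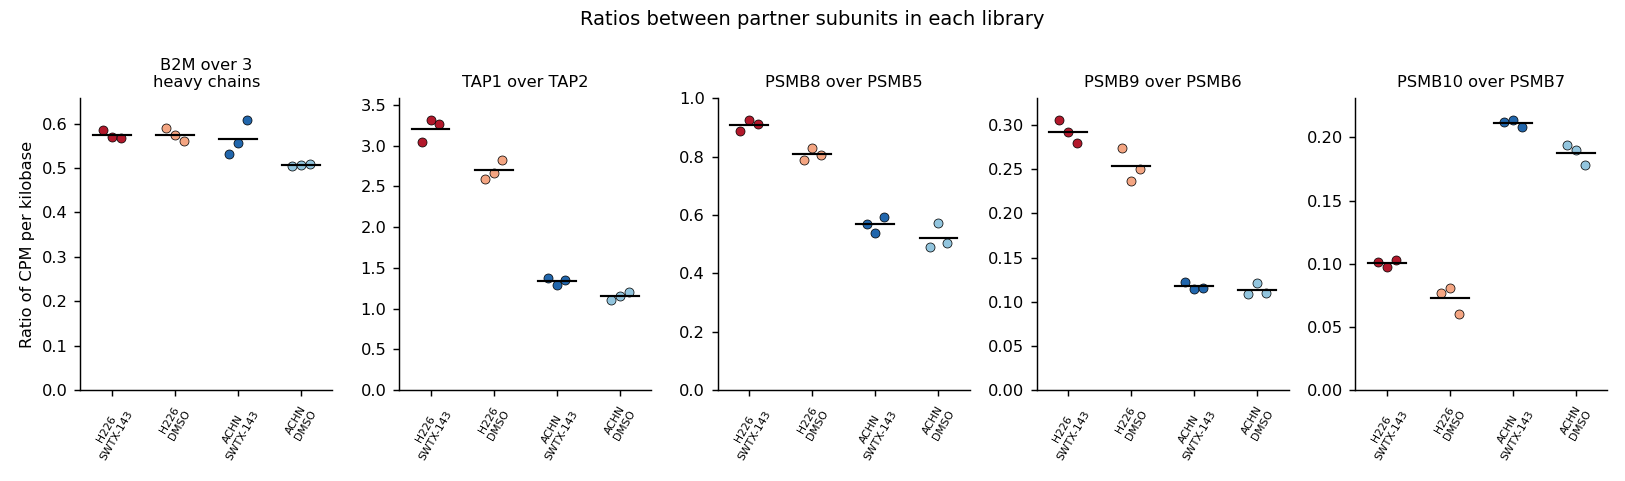
Ratio of CPM per kilobase between partner subunits in each library (linear axes from 0), by line and treatment; points are libraries, bars means of 3, and the 3 heavy chains are HLA-B, HLA-C and HLA-E. TAP1 over TAP2 is higher in each treated library than in any control of the same line, while B2M over the heavy chains overlaps between the groups in H226.

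Over the 12 libraries, with each line centred on its own mean, HLA-C followed the mean of the other 8 genes most closely (Pearson r = 0.945), then HLA-B (0.921) and HLA-E (0.911). B2M (0.799), TAPBP (0.723), PSMB9 (0.608) and PSMB8 (0.486) followed it less, TAP1 hardly (0.153), and TAP2 ran against it (-0.784). Outside the set, among 11487 genes compared with at least 5 CPM, the 5 most like the mean profile were SERPINB1 (0.981), STMN3 (0.969), SQRDL (0.968), CHP1 (0.967) and CTSD (0.966). These values describe 12 libraries that share the treatment contrast and library scaling.

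Among 7 other genes of the class I heavy chain family, 3 rose and 2 fell of 6 tested in H226 (median 0.18), and 2 rose and 2 fell of 5 tested in ACHN (median 0.22). Of all genes, 19.0% were called higher and 21.6% lower in H226, and 8.43% and 9.37% in ACHN. MR1, which presents vitamin B metabolites to MAIT cells, rose 2.05-fold in H226 (log2 1.04 ± 0.12, adjusted p = 2.99e-10, edgeR) and 1.16-fold in ACHN (0.22 ± 0.07, adjusted p = 0.0287). HFE, a regulator of iron uptake, rose in both lines as well (0.38 ± 0.09 in H226 and 0.28 ± 0.09 in ACHN). MICA, a stress ligand of the activating receptor NKG2D that binds no peptide, fell in both (-0.23 ± 0.07 in H226 and -0.44 ± 0.10 in ACHN). MICB, its close relative, fell in both too (-0.29 ± 0.09 in H226 and -0.27 ± 0.07 in ACHN).

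Of 10 genes of peptide trimming and loading, 2 rose in H226 and 1 fell in ACHN, close to the shares of all genes (19.0% higher in H226 and 9.37% lower in ACHN). The 2 were the aminopeptidases that trim peptides in the endoplasmic reticulum, ERAP2 (log2 0.43 ± 0.05, adjusted p = 1.15e-09, edgeR) and ERAP1 (0.19 ± 0.05, adjusted p = 0.000703). The one that fell in ACHN was the chaperone HSPA5 (-0.25 ± 0.03, adjusted p = 6.78e-08). Of 6 immunoproteasome and activator genes, H226 had 2 higher and 2 lower, against 19.0% and 21.6% of all genes. The remaining immunoproteasome subunit PSMB10 rose (0.38 ± 0.10, adjusted p = 0.00151), as did PSME1 of the PA28 activator (0.14 ± 0.04, 0.00829), while the nuclear activator PSME3 (-0.41 ± 0.04, 2.92e-11) and the assembly factor POMP (-0.15 ± 0.06, 0.0399) fell. In ACHN POMP alone was called (-0.16 ± 0.05, adjusted p = 0.015), and PSMB10 was at 0.10 ± 0.07. Of the 3 standard catalytic subunits, PSMB5 fell in H226 (-0.16 ± 0.05, adjusted p = 0.0102), where PSMB6 was at -0.11 and PSMB7 at -0.08, and none was called in ACHN.

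Of 17 known regulators of class I transcription, 5 rose, 2 fell and 10 were not called in H226, where 19.0% of all genes were called higher and 21.6% lower. In ACHN 2 rose and 15 were not called (8.43% of all genes higher and 9.37% lower). NLRC5, the class I transactivator, was at 35.4, 39.3 and 41.3 CPM in H226 with SWTX-143, against 32.2, 34.3 and 33.7 CPM with DMSO. It rose 1.15-fold there (log2 0.21 ± 0.07, adjusted p = 0.0178, edgeR) and was at 0.07 ± 0.08 in ACHN (adjusted p = 0.637). IRF1 was at 25.7, 27.0 and 28.96 CPM in H226 with SWTX-143, against 15.1, 18.8 and 21.3 CPM with DMSO. This factor, which binds interferon response elements, rose in both lines, 1.48-fold in H226 (0.56 ± 0.09, adjusted p = 3.75e-06) and 1.25-fold in ACHN (0.32 ± 0.08, 0.00262).

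Among the other regulators, IRF9 (0.51 ± 0.06) and RFX5 (0.48 ± 0.07) rose and NFYB fell (-0.30 ± 0.04) in H226, while in ACHN IRF2 rose (0.23 ± 0.08). Under DMSO, 11 of the 17 regulators were higher in H226 than in ACHN, 5 were lower and 1 was not called. Of all 14664 genes tested between the lines, 6193 (42.2%) were called higher in H226 and 6184 lower. NLRC5 was 1.69-fold higher in H226 (log2 0.76 ± 0.08, adjusted p = 1.95e-14, edgeR), while RFX5 (-1.34 ± 0.06), CREB1 (-1.59 ± 0.07) and IRF1 (-0.26 ± 0.09) were lower.

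Of 10 interferon receptor and signalling genes, 3 rose and 2 fell in H226 (19.0% and 21.6% of all genes) and 2 rose in ACHN (8.43% of all genes). The type I receptor chain IFNAR1 was higher in both (0.24 ± 0.05 in H226 and 0.17 ± 0.06 in ACHN). Of 20 other interferon-stimulated genes, 15 of 20 tested rose in H226 (median 0.35) and 9 of 17 tested in ACHN (median 0.24), against 19.0% of all genes called higher in H226 and 8.43% in ACHN. The guanylate-binding protein gene GBP2 rose most in both lines (1.69 ± 0.23 in H226 and 0.74 ± 0.12 in ACHN), and PSMB10 is also on this list. Both medians were above those of the 9 class I genes, a comparison that carries no test. Of 8 class II genes only 2 passed the filter on low counts in H226, and these 2 rose (19.0% of all genes called higher). In ACHN 2 of 5 tested rose (8.43% of all genes), and CD74 rose in both lines (0.31 ± 0.08 in H226 and 0.24 ± 0.04 in ACHN). Of 8 ligands of natural killer cells and checkpoint receptors, 2 rose and 3 fell of 7 tested in H226 (19.0% and 21.6% of all genes). In ACHN 1 fell of 8 tested, close to the share of all genes called lower (9.37%). CD47 (0.16, adjusted p = 0.0121) and NECTIN2 (0.13, adjusted p = 0.0122) rose in H226. PVR fell in both (-0.63 ± 0.05 in H226 and -0.31 ± 0.05 in ACHN), and CD274, which encodes PD-L1, fell in H226 (-0.89 ± 0.09, adjusted p = 2.16e-12, edgeR). All these lists were written from general knowledge with earlier results of these libraries known.

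**Figure D5:**
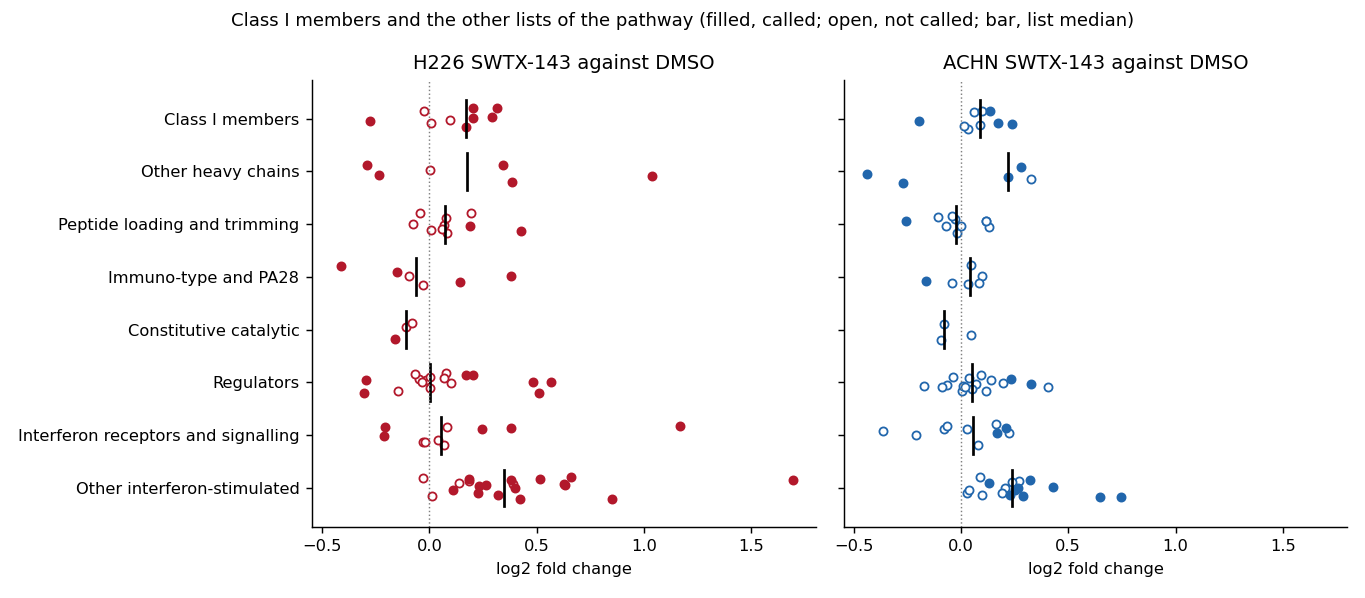
Log2 fold change with SWTX-143 over DMSO of the tested genes of each list in H226 (left) and ACHN (right); filled points have an adjusted p under 0.05 in edgeR, and black bars are list medians. The class I genes have medians of 0.17 and 0.09, below those of the other interferon-stimulated genes at 0.35 and 0.24.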

How the data were processed

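The deposited tables, 1 per line, hold raw counts of reads per gene symbol as the authors made them, 12 libraries in all. Per the submitters' processing notes, FastQC, cutadapt and STAR 2.6.1d were used on hg19 (GRCh37). Which program counted the reads, with which strand setting and gene models, is not given in the sources used here. Reads were paired, of 100 bases, from a BGISEQ-500, per the labels' protocols.

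Counts were analysed with edgeR 4.0.16 in R 4.3.3: filterByExpr, TMM scaling, robust quasi-likelihood F tests and Benjamini-Hochberg adjustment over all genes tested, with 0.05 as the limit. Each line was fitted alone (13484 genes in H226, 13483 in ACHN), and the contrasts between lines came from 1 fit of all 12 libraries (14664 genes). SE were derived from each log2 fold change and F value. CPM used TMM sizes over all 12 libraries. The biological coefficient of variation was 3.98% in H226 and 3.23% in ACHN. Libraries of a group differed by more than counting noise in every pair (chi-square per gene). The scripts were tested on simulated data. Alternatives were 3 other scalings, no filter, DESeq2 1.42.0, a replicate block, median transcript length and leaving out each library.

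Transcript lengths and overlaps came from GENCODE 29 (GRCh38) and promoters from RefSeq (GRCh38.p14), and no coordinate was carried over to the counts. The 9 genes and all lists were chosen with earlier results of these data known. Named genes were the 9, up to 4 of each list with the smallest p per comparison, PSMB5, PSMB6, PSMB7, PSMB10, NLRC5, IRF1 and the 5 most alike in profile. Some genes, and results that rest on them, are not reported here and were taken out of the lists and the ranking after the analysis.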

Additional observations from a re-analysis of the deposited data

Results flagged for a closer look

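Groups of 3 libraries are too small for a test of single outlying libraries, so only differences of the drug response between the lines are given, each as the H226 response minus the ACHN response on the log2 scale with its SE, called by edgeR's contrast over all 12 libraries. Among the 9 class I genes HLA-E responded more in H226 (0.17 ± 0.06, adjusted p = 0.0385).

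Among the other genes named by rule, responses were higher in H226 for MR1 (0.81 ± 0.14), HSPA5 (0.33 ± 0.05), IRF9 (0.31 ± 0.11), STAT2 (0.25 ± 0.08), RFX5 (0.36 ± 0.09), IFNGR1 (0.34 ± 0.09), SOCS1 (1.52 ± 0.49), IFIT1 (0.42 ± 0.13), GBP2 (0.94 ± 0.27) and NECTIN2 (0.25 ± 0.06). Responses were lower in H226 for PSME3 (-0.38 ± 0.06), NFYB (-0.27 ± 0.07), EZH2 (-0.24 ± 0.08), IFNGR2 (-0.24 ± 0.09), IFIT2 (-0.42 ± 0.13), CD274 (-0.68 ± 0.20), PDCD1LG2 (-1.11 ± 0.27), PVR (-0.34 ± 0.07) and ANKRD1 (-0.71 ± 0.20). Some of these genes had few counts. In the H226 libraries with DMSO, SOCS1 had 4, 4 and 10 counts and GBP2 13, 19 and 13. In the ACHN libraries with DMSO, PDCD1LG2 had 16, 16 and 34. No cause of the differences in response was tested.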

How the results depend on the processing

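The rises of HLA-B, HLA-C, HLA-E, B2M and TAPBP and the fall of TAP2 in H226, and the rises of B2M and TAPBP in ACHN, held under all alternatives run. Where another value moved, the cause was not tested. The log2 fold change of TAP1 in H226 turned to 0.02462 with upper-quartile scaling and 0.01545 with library sizes alone. For the difference between lines, PSMB9 turned to 0.01732 (RLE), 0.03537 (upper-quartile), 0.009516 (library sizes), 0.02491 (no filter) and 0.01209 (DESeq2), PSMB8 to 0.01458 (upper-quartile) and 0.003875 (no filter), and B2M to 0.005156 (upper-quartile). DESeq2 called 1668 genes higher in H226 (edgeR 2567), 1417 in ACHN (603 higher and 814 lower, edgeR 2401) and 1500 for the difference (851 lower, edgeR 2286). Class I genes called higher for the difference numbered 2 with RLE, upper-quartile, library sizes or no filter (1 with TMM). The planned sum of heavy chain reads was left out.

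Leaving out 1 library at a time gave 5 to 6 class I genes higher in H226, 2 to 4 higher and 0 to 1 lower in ACHN, and 0 to 4 higher for the difference (832 to 1411 of all genes lower). Log2 values ranged over -0.05361 to 0.006285 (TAP1) and -0.01863 to 0.0289 (PSMB8) in H226, -0.02139 to 0.0728 (TAP1) in ACHN and, for the difference, -0.05639 to 0.03886 (B2M), -0.1056 to 0.01917 (TAP1), -0.06941 to 0.0329 (PSMB8) and -0.06028 to 0.07378 (PSMB9). With median transcript length under DMSO, B2M over heavy chains was 1.03 in H226 and 0.945 in ACHN, TAP1 over TAP2 1.69 and 0.722, PSMB8 over PSMB5 1.1 and 0.713, PSMB9 over PSMB6 0.663 and 0.297, and PSMB10 over PSMB7 0.164 in ACHN.

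Same-numbered libraries of the treated and control groups correlated at -0.107 to 0.0744 once each group was centred. Only for H226 replicate 2 was this above the best differently numbered library (0.0744 against 0.00116). With 3 libraries per group, these values cannot exclude a weak pairing by replicate number. With the numbers as a replicate block, HLA-E was not called in ACHN (adjusted p = 0.0651) or for the difference (0.0503), leaving 0 class I genes called there. All-gene calls were then 5744 in H226 and 2146 in ACHN.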
